A study of Caenorhabditis elegans with 20 samples.

Results

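The genotype ns889 was compared with wild type (WT) in young adult Caenorhabditis elegans that had not met the mold Penicillium brevicompactum. The name ns889 denotes an allele; neither the affected gene nor the number of lines behind it is named in the labels. The comparison takes 10 of the 20 sequencing runs of the study, chosen by the labels for genotype and for the absence of an added agent. They form 6 of its 12 replicates, 3 of ns889 and 3 of WT. Replicate 1 of each group had 1 run, and replicates 2 and 3 had 2 runs each, which were summed to 1 library per replicate. The other 6 replicates are the same genotypes on plates that also held the mold. All animals were raised for about 48 hours at 20 C after L1 arrest, on NGM agar seeded with Escherichia coli OP50, and polyA RNA of whole animals was sequenced. The comparison gives the baseline difference between the genotypes, without mold. Differences between the lines other than the allele were not tested. Nothing in the labels says whether replicates were separate cultures. The spread behind each p-value was estimated over all 12 replicates, those on mold included, and may be technical.

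Ribosomes are assembled in the nucleolus, where RNA polymerase I makes the large ribosomal RNA and many accessory proteins cut, modify and fold it. Worms clear foreign compounds and waste lipids mainly in the intestine, with cytochrome P450 enzymes and short-chain dehydrogenases that alter a molecule, UDP-glycosyltransferases and glutathione S-transferases that attach a soluble group, and ABC transporters that export it. Many of these genes are set by nuclear hormone receptors, a family of ligand-regulated transcription factors that is very large in C. elegans. Both systems appear among the genes described here.

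The 6 replicates held 95998037 to 115940062 counts, and a floor of 3 counts corresponds to 0.0259 to 0.0313 CPM. CPM is the count relative to the library total, and for single genes it was also scaled by TMM factors. The floor covers counting error only. Mitochondrial DNA gave 1.39 to 1.63% of counts, and 0 of its 14 tested genes passed the test. WT replicate 1 stood apart from the other 2 WT replicates (root mean square log2 difference 0.612, against 0.435 and 0.463 for WT replicates 2 and 3 and 0.343 to 0.399 for the ns889 replicates). In that library the oocyte and eggshell genes lay on average 0.41 log2 units above the mean of the 6 replicates, and the sperm and cuticle collagen genes 0.47 and 0.71 units below it (means of -0.47 and -0.71). The total counts and those of some lists are also given without it. In whole animals, fewer cells of a type and less RNA per cell cannot be told apart.

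Genes higher in ns889 outnumbered those lower. Of 16980 genes tested, 488 (2.87%) passed an adjusted p of 0.05 in edgeR's quasi-likelihood test, 411 of them higher (2.42%) and 77 lower (0.453%). The higher genes were abundant and moved little. They had a median level of 45.6 CPM, against 8.22 CPM for all genes tested, and a median log2 fold change of 0.59, and 118 of them (28.7%) were past 2-fold. The lower genes were scarce and moved more: their median level was 3.89 CPM, their median log2 fold change was -1.07, and 42 of 77 (54.5%) were past 2-fold. With genes that had no count in one group set at their bound, these medians were 0.59 and -1.07 as well. In all 488 genes the replicates of the groups did not overlap, which held for 18.3% of the genes tested (12.3% higher and 5.97% lower). Without WT replicate 1 the test found 458 higher and 211 lower genes, and 371 of the 411 and 71 of the 77 were among them. Without ns889 replicate 2 it found 276 higher and 43 lower, and without WT replicate 3 282 higher and 48 lower. By biotype, 395 higher and 72 lower genes were protein coding, 11 and 4 were pseudogenes, and 5 and 1 were non-coding RNAs. The biotype shares of all genes tested were not counted.

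**Figure D1:**
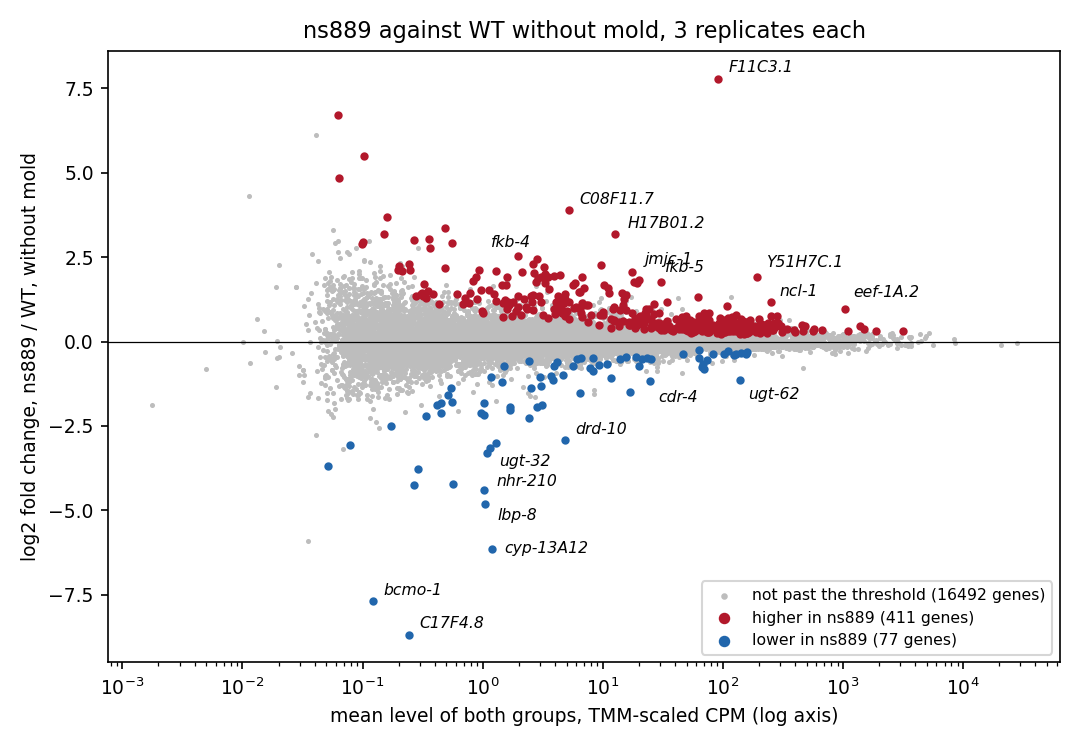
Log2 fold change of ns889 over WT without mold (vertical axis) against the mean level of both groups in TMM-scaled CPM (horizontal log axis) for 16980 genes, with 411 called higher in red, 77 called lower in blue and the rest in grey. The higher calls crowd at small changes of abundant genes, apart from F11C3.1 at 7.79; fitted values of genes with no count in one group, such as C17F4.8 and bcmo-1, depend on the prior count.

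The gene with the greatest change among those of at least 5 CPM was F11C3.1 (WBGene00008695, chromosome I, 14867924 to 14871467, WBcel235), a protein-coding gene. It had 161, 171 and 211 CPM in ns889, against 0.844, 0.906 and 0.708 CPM in WT. Every ns889 replicate stood far above every WT replicate, by 221-fold in the fitted means (log2 fold change 7.79 ± 0.21 (SE), adjusted p = 8.64e-10). C08F11.7 (chromosome IV, 13637288 to 13638525) had 9.1, 10.3 and 9.95 CPM in ns889 and 0.777, 0.422 and 0.78 CPM in WT. H17B01.2 (chromosome II, 1470565 to 1472260) had 25.5, 20.5 and 21.9 CPM in ns889 and 2.06, 2.36 and 3.06 CPM in WT. Neither gene's groups overlapped, with log2 fold changes of 3.88 ± 0.22 for C08F11.7 and 3.19 ± 0.18 for H17B01.2 (adjusted p = 2.14e-06 for each). The files name no function for these 3 genes.

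jmjc-1, which encodes a Jumonji C domain protein (chromosome I, 3631086 to 3636485), had 27.6, 30.6 and 26.9 CPM in ns889, against 6.15, 6.98 and 7.3 CPM in WT. All ns889 values exceeded all WT values (log2 fold change 2.06 ± 0.12, adjusted p = 2.14e-06). It overlaps cah-6 on the other strand, and the strand setting of the counts is not given, so reads of both genes could be mixed. dot-1.3, a member of the DOT1 family of histone methyltransferases, had 2.94, 3.1 and 3.93 CPM in ns889 and 0.498, 0.611 and 0.626 CPM in WT (2.52 ± 0.20, adjusted p = 3.63e-05; a gene chosen after its values were seen). Other genes of at least 5 CPM with high log2 fold changes were M04C9.4 (2.27 ± 0.24), Y51H7C.1 (1.90 ± 0.13), T20D4.3 (1.67 ± 0.20), arrd-18, which encodes an arrestin domain protein (1.58 ± 0.12), and the pseudogene WBGene00021055 (1.72 ± 0.18). F46F5.11 (1.69 ± 0.41, adjusted p = 0.0497) lost its call when any single ns889 replicate was left out (adjusted p from 0.124 to 0.148).

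**Figure D2:**
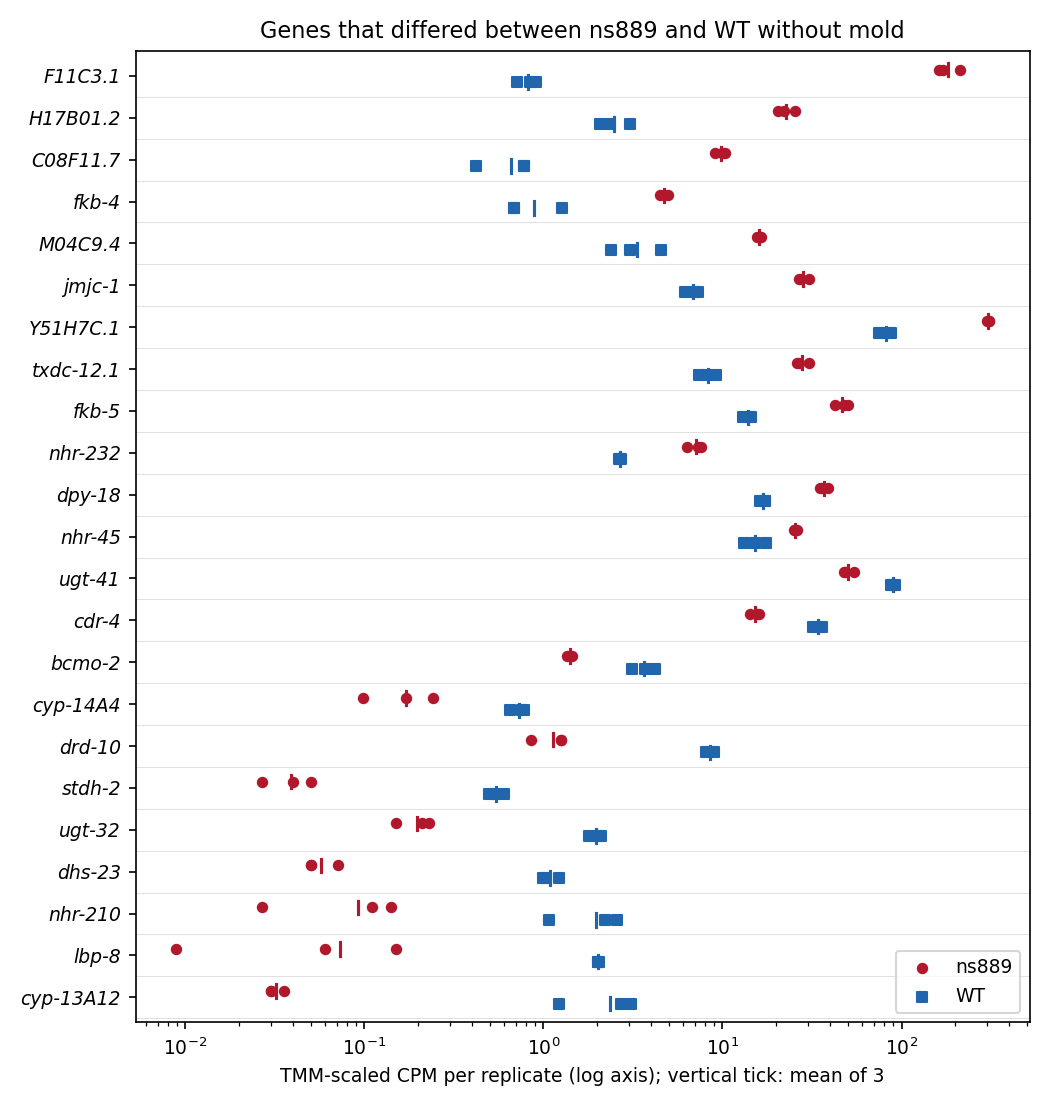
TMM-scaled CPM in each replicate (horizontal log axis) of 23 genes that passed the test, with ns889 as red circles above WT as blue squares and a tick at the mean of 3. In every gene shown the 3 ns889 values lie on one side of the 3 WT values; the lowest ns889 values, such as 0.00888 CPM for lbp-8, lie under the floor of detection.

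Some called genes sat side by side. On chromosome II, from 1463268 to 1472260, Y51H7C.13 (log2 fold change 1.33 ± 0.16), Y51H7C.1 and H17B01.2 formed a run of 3 higher genes with no other tested gene between them. Y51H7C.1 had 301, 307 and 308 CPM in ns889, against 84.5, 74.7 and 87.1 CPM in WT. On chromosome V, from 16926920 to 16933555, Y102A5C.36 (2.05 ± 0.20) and the pseudogenes WBGene00014954 (1.91 ± 0.15), WBGene00014955 (1.81 ± 0.15) and WBGene00013614 (2.78 ± 0.59) were all higher. Neighbours that resemble each other can share reads, so values within such a run may not be independent. WBGene00013614 lost its call without WT replicate 3 or any 1 ns889 replicate (adjusted p 0.0584 to 0.0834). Over whole chromosomes, called genes were 83 higher and 0 lower of 2666 tested on chromosome I, 91 and 18 of 2957 on II, 59 and 5 of 2521 on III, 51 and 11 of 2892 on IV, 90 and 30 of 3514 on V, and 37 and 13 of 2416 on X. The shares called higher ran from 1.53% on X to 3.11% on I, against 2.42% of all genes tested. Those called lower ran from 0% on I to 0.854% on V, against 0.453%.

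Genes of ribosome production were higher in ns889 by small and even amounts. These families were chosen after their values had been seen, so their counts are a description. All 7 tested nol genes, named for nucleolar proteins, were called higher, with a median log2 fold change of 0.41 (all genes tested: -0.01; 2.42% called higher). nol-6, whose yeast counterpart belongs to the small subunit processome, had 84.9, 78.4 and 77.6 CPM in ns889 and 41.7, 49.3 and 50.2 CPM in WT (0.77 ± 0.08, adjusted p = 0.000178). utp-20, a gene of the same particle (0.76 ± 0.06), and nath-10, whose human counterpart acetylates ribosomal RNA (0.79 ± 0.06), were higher by like amounts. nol-56, a core protein of the box C/D particles that guide RNA methylation, had 392, 387 and 378 CPM in ns889, against 273, 312 and 300 CPM in WT. Its groups did not overlap and its log2 fold change was 0.39 ± 0.06. utp-20, nath-10 and nol-56 each overlap another tested gene.

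Of 10 tested subunits of RNA polymerases I and III, which transcribe ribosomal RNA and transfer RNA, 8 were called higher and 0 lower (median log2 fold change 0.42), and 5 when only the 2 groups were fitted. Of all genes tested 2.42% were called higher. rpoa-1, the largest subunit of RNA polymerase I (chromosome II, 13670633 to 13694787), had 184, 189 and 182 CPM in ns889, against 116, 130 and 128 CPM in WT. The 3 ns889 replicates lay within a narrow band above all WT values (0.57 ± 0.06, adjusted p = 0.000327). rpoa-2 (0.43 ± 0.06), rpc-1 (0.37 ± 0.06) and rpc-2 (0.51 ± 0.05), the other large subunits tested in the list, were higher too. rpc-1 lost its call when only the 2 groups were fitted (adjusted p = 0.0611). All 3 pro genes, which act in ribosomal RNA processing, passed: pro-1 (0.63 ± 0.06), pro-2 (0.49 ± 0.07) and pro-3 (0.57 ± 0.07). Of 4 nsun genes, which encode RNA cytosine methyltransferases, nsun-1 (0.43 ± 0.06), nsun-2 (0.36 ± 0.05) and nsun-5 (0.64 ± 0.08) were higher and 0 lower. The snoRNP protein gene nol-58 (0.33 ± 0.06), the pseudouridine synthase gene dkc-1 (0.38 ± 0.06) and the nucleostemin gene nst-1 (0.37 ± 0.05) passed as well.

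fib-1, the gene of fibrillarin, the methyltransferase used as a nucleolar marker, had 646, 628 and 612 CPM in ns889 and 472, 550 and 494 CPM in WT. Its groups did not overlap, with a log2 fold change of 0.32 ± 0.07 (adjusted p = 0.0264). That call was lost without WT replicate 1 (adjusted p = 0.0603) or 3 (0.123), without ns889 replicate 1 (0.115), 2 (0.104) or 3 (0.0705), and when only the 2 groups were fitted (0.0663). ncl-1, which encodes a B-box zinc finger protein known in worms to limit nucleolar size and fib-1 expression, was higher by more than these genes. It had 408, 330 and 317 CPM in ns889, against 178, 147 and 143 CPM in WT (1.17 ± 0.13, adjusted p = 0.000363). The lowest ns889 value was well above the highest WT value. ncl-1 overlaps the gene WBGene00022661 on the other strand.

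Genes for the ribosome itself moved less. Of 78 tested ribosomal protein genes 77 had a positive log2 fold change, with a median of 0.15, against 8218 of all 16980 genes tested. But 3 were called higher (3.85%, near the 2.42% of all genes tested) and 0 lower: rpl-24.2 (0.69 ± 0.07), rpl-11.2 (0.49 ± 0.12) and rpl-25.1 (0.47 ± 0.11). rpl-24.2 had 112, 116 and 126 CPM in ns889 and 69, 73.3 and 76.8 CPM in WT. The count was 1 when any 1 of the 6 replicates was dropped, and also on dropping replicate 2 of WT or replicate 1 or 2 of ns889 on mold, and 5 without WT with mold replicate 3. Their summed level was 86000, 83600 and 82500 CPM in ns889, against 71100, 78600 and 76200 CPM in WT. Under RLE scaling and each left-out library the median of the list stayed positive, between 0.11 and 0.18. All 70 tested genes of mitochondrial ribosomal proteins, a family chosen after its values were seen, had positive values (median 0.19). Of these, 10 were called higher (14.3%) and 0 lower. That count was 6 without WT with mold replicate 1, ns889 with mold replicate 2 or ns889 replicate 1, and 5 without WT replicate 2 or ns889 replicate 2 or 3. mrpl-41 (0.55 ± 0.11) was among the 10 and lost its call without WT replicate 2 (adjusted p = 0.0699) or ns889 replicate 2 (0.102) or 3 (0.0952). eef-1A.2, a gene of translation elongation factor 1 alpha, had 1360, 1358 and 1369 CPM in ns889 and 578, 780 and 741 CPM in WT (0.96 ± 0.13, adjusted p = 0.0012). The ns889 values were nearly equal and all above WT. rsks-1, the gene of the ribosomal protein S6 kinase, was higher by 0.35 ± 0.05. Proteasome subunit genes lay on the other side of 0: 32 of 33 had negative values (median -0.11) and 0 were called in edgeR, DESeq2 or limma-voom, with 6 lower at an unadjusted p under 0.05.

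**Figure D3:**
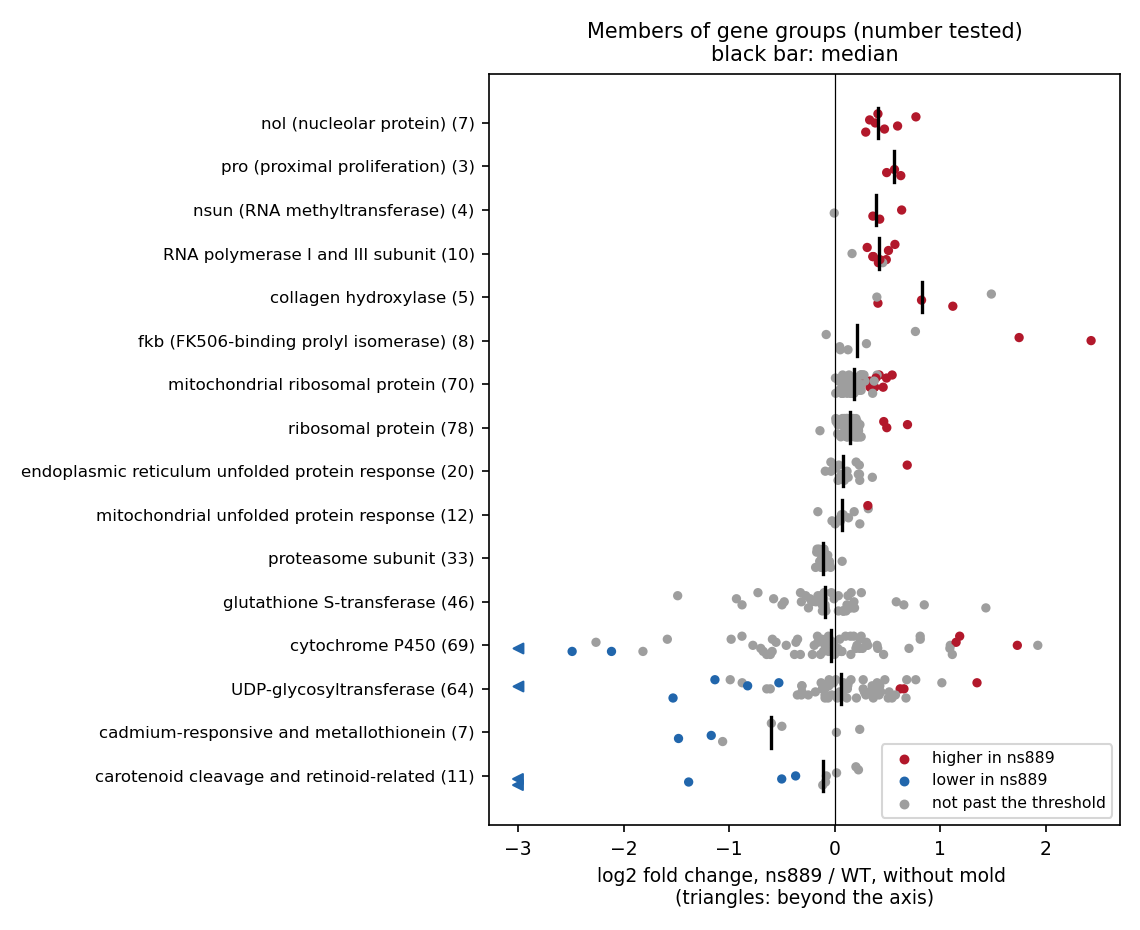
Log2 fold change of ns889 over WT without mold (horizontal axis) for each tested member of 16 gene groups, with called higher members in red, called lower members in blue, others in grey and the group median as a black bar. The nucleolar and polymerase groups sit to the right of 0 within a narrow range, and the P450 and UDP-glycosyltransferase groups spread to both sides.

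Of 5 collagen hydroxylase genes, whose enzymes modify collagen in the endoplasmic reticulum, 3 were called higher and 0 lower (2.42% of all genes tested were higher); the family was chosen after its values had been seen, so the count is a description. dpy-18 and phy-2 encode the catalytic subunits of the prolyl 4-hydroxylase of cuticle collagens, whose product is needed for stable collagen triple helices. dpy-18 (chromosome III, 11372886 to 11377980) had 38.9, 36.1 and 35.2 CPM in ns889, against 17.3, 17.2 and 16.2 CPM in WT (1.12 ± 0.09, adjusted p = 3.84e-05). phy-2 had 30.4, 28.2 and 27.3 CPM in ns889 and 16.1, 17.6 and 14.8 CPM in WT (0.82 ± 0.09, adjusted p = 0.000291). In both genes all ns889 replicates exceeded all WT replicates. let-268, the gene of the procollagen lysyl hydroxylase, was called higher as well (0.41 ± 0.08, adjusted p = 0.011). It lost the call without WT replicate 2 (0.0501), ns889 replicate 2 (0.0595) or ns889 replicate 3 (0.0587), and when only the 2 groups were fitted (0.0608). phy-3, an eggshell prolyl hydroxylase gene, had a log2 fold change of 0.40 ± 0.16 and did not pass (adjusted p = 0.33), nor did phy-4 (adjusted p = 0.118).

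Prolyl isomerases speed a slow step of collagen folding. Of 8 fkb genes, which encode FK506-binding isomerases, 2 were called higher (25%, against 2.42% of all genes tested). This family too was chosen after its values had been seen, and its other 6 members did not pass. fkb-5 (chromosome I, 3898046 to 3899840) had 50.1, 47.6 and 42.6 CPM in ns889, against 14.3, 14.5 and 13 CPM in WT (1.75 ± 0.14, adjusted p = 3.63e-05). fkb-4 had 4.98, 4.74 and 4.49 CPM in ns889 and 0.684, 0.685 and 1.27 CPM in WT (2.43 ± 0.28, adjusted p = 0.000371). Neither gene's groups overlapped. txdc-12.1, a thioredoxin domain gene, had 30.6, 26.9 and 26.2 CPM in ns889, against 8.2, 7.4 and 9.15 CPM in WT (1.76 ± 0.17, adjusted p = 0.000122). dnj-27, which encodes a thioredoxin-like chaperone of the endoplasmic reticulum, was higher by 0.69 ± 0.12. It was the 1 called gene of 20 (5%) in the list of the unfolded protein response of that compartment. That count was 3 without WT replicate 1 and 2 without WT with mold replicate 3. hsp-4, the BiP chaperone gene that marks this response, had 379, 353 and 342 CPM in ns889 and 386, 387 and 369 CPM in WT and did not pass (-0.09 ± 0.06, adjusted p = 0.66).

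The cuticle collagens themselves gave no calls in the main test. Of 130 tested cuticle collagen genes 0 passed in edgeR or limma-voom, while 1 was lower in DESeq2, and 6 higher and 1 lower had an unadjusted p under 0.05. Without WT with mold replicate 1 or 3 a call was made for 1 lower gene. The list's median was 0.30, and its genes were low in WT replicate 1 (mean deviation -0.71). The median was 0.079 without that replicate and -0.0084 without ns889 replicate 3. Summed over the list, ns889 had 50500, 52100 and 50600 CPM and WT had 47600, 57900 and 55000 CPM, which overlapped. Among 30 genes named for cuticle structure (median 0.45) 2 were called, both higher (6.67%, against 2.42% of all genes tested). They were the hydroxylase genes dpy-18 and phy-2. With single libraries left out, the median of this list of cuticle structure genes ran from 0.13 to 0.81. ptr-6, of the patched-related family that acts in the epidermis, was higher (0.76 ± 0.15, adjusted p = 0.0146) and lost its call without WT replicate 2 (0.0849) or 3 (0.0575) or ns889 replicate 2 (0.0996).

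In the list of carotenoid cleavage and retinoid-related genes, which holds the lipid-binding lbp genes, 5 of 11 were called lower and 0 higher (median -0.11, also with bcmo-1 at its bound; 0.453% of all genes called lower). lbp-8, the gene of a lipid chaperone that in worms carries a signal out of the lysosome (chromosome V, 13890679 to 13891364), had 0.00888, 0.151 and 0.0604 CPM in ns889, against 2.02, 2.01 and 2.05 CPM in WT. The WT values agree closely, and each lies above all ns889 values (-4.80 ± 0.57, adjusted p = 0.000432). bcmo-1, named for a carotene monooxygenase (chromosome II, 12830707 to 12832720), had no count in any ns889 replicate, against 0.304, 0.242 and 0.185 CPM in WT. Set against 3 counts over the 3 ns889 replicates, it was at least 25.6-fold lower (adjusted p = 0.000679). bcmo-2 of the same family (chromosome II, 3908491 to 3910837) had 1.44, 1.42 and 1.36 CPM in ns889 and 4.2, 3.12 and 3.67 CPM in WT (-1.38 ± 0.17, adjusted p = 0.000439). The fatty acid binding genes lbp-1 (-0.50 ± 0.08) and lbp-2 (-0.37 ± 0.06) were lower by less. lbp-2 had 146, 132 and 128 CPM in ns889, against 172, 179 and 174 CPM in WT, with no overlap.

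C17F4.8 (chromosome II, 3230817 to 3234813; chosen after its values were seen) was likewise without a count in ns889. It had 0.861, 0.264 and 0.328 CPM in WT, so it was at least 50.9-fold lower in ns889 (adjusted p = 0.00316). drd-10 (chromosome V, 7007612 to 7008299) had 1.26, 1.25 and 0.855 CPM in ns889, against 8.5, 8.13 and 8.99 CPM in WT (-2.92 ± 0.39, adjusted p = 0.000972). The sugar transporter gene swt-6 had 0.373, 0.11 and 0.211 CPM in ns889 and 1.54, 2.48 and 2.21 CPM in WT (-3.14 ± 0.39; it overlaps R10D12.10 on the other strand). In each of these genes the lowest WT value was above the highest ns889 value. The 2 called of 7 genes in the cadmium-responsive and metallothionein list were both lower (28.6%, against 0.453% of all genes tested). cdr-4, a cadmium-responsive gene (chromosome V, 12407428 to 12408592), had 15.9, 15.5 and 14.2 CPM in ns889 and 31.9, 34.6 and 36.1 CPM in WT (-1.17 ± 0.13, adjusted p = 0.000296). cdr-2 had 8.74, 8.1 and 10 CPM in ns889, against 15.6, 29.4 and 30 CPM in WT, where replicate 1 was the lowest (-1.48 ± 0.23, adjusted p = 0.00237). No cdr or metallothionein gene was called higher.

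Cytochrome P450 genes went both ways, 3 higher and 3 lower of 69 (4.35% each way, against 2.42% higher and 0.453% lower of all genes tested; median -0.03). DESeq2 called 4 higher and 6 lower, and limma-voom 3 higher and 1 lower. cyp-13A12 (chromosome III, 13024547 to 13028012) had 0.0355, 0.0301 and 0.0302 CPM in ns889, against 1.22, 3.09 and 2.72 CPM in WT. These are 10 counts over the 3 ns889 replicates and 703 over the WT replicates, and the ns889 values are near the floor (-6.13 ± 0.70, adjusted p = 0.000402; limma-voom 0.0712). cyp-14A4 (chromosome X, 13282096 to 13284204) had 0.0977, 0.241 and 0.171 CPM in ns889 and 0.76, 0.653 and 0.78 CPM in WT (-2.11 ± 0.30, adjusted p = 0.00152). Its groups were separate by a wide margin. cyp-13A2, of the cluster on chromosome II, moved the other way, with 29.4, 26.5 and 32.7 CPM in ns889 and 4.3, 11.4 and 11.1 CPM in WT (1.73 ± 0.30, adjusted p = 0.00574). Its low WT value was that of replicate 1. cyp-13A5 of the same cluster was higher by 1.19 ± 0.20 (adjusted p = 0.00408). The cyp-13A genes are alike in sequence and could share reads.

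Of 64 UDP-glycosyltransferase genes 3 were higher (4.69%) and 5 lower (7.81%), against 2.42% and 0.453% of all genes tested (median 0.06). The counts were 2 and 3 without WT replicate 2, WT replicate 3, ns889 replicate 1 or ns889 replicate 2, and also when only the 2 groups were fitted. Over all fits that left out a single library they ran from 2 to 4 higher and from 3 to 7 lower. ugt-62 (chromosome III, 4537277 to 4540644), the most abundant of the called ones, had 82.5, 87.4 and 88.6 CPM in ns889, against 130, 218 and 219 CPM in WT (-1.13 ± 0.17, adjusted p = 0.00229). Even the low WT replicate 1 exceeded the ns889 replicates. ugt-41 (chromosome V, 7161068 to 7163595) had 47.8, 54.5 and 48.6 CPM in ns889 and 91.5, 87.7 and 88.1 CPM in WT (-0.82 ± 0.13, adjusted p = 0.00242). ugt-32 had 0.231, 0.211 and 0.151 CPM in ns889 and 2.08, 1.8 and 2.03 CPM in WT (-3.31 ± 0.28, adjusted p = 3.84e-05). Both groups of replicates were tight in ugt-41 and ugt-32. On the higher side, ugt-12 had 90, 75.8 and 77.7 CPM in ns889, against 51.9, 53.7 and 48.8 CPM in WT (0.66 ± 0.11, adjusted p = 0.00391). ugt-1 was lower by -1.53 ± 0.32 (adjusted p = 0.0182) and lost its call without WT replicate 2 (0.0867) or 3 (0.0811), without ns889 replicate 1 (0.0987) or 2 (0.0937), and in limma-voom (0.0984).

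Of 34 short-chain dehydrogenase genes 1 was called higher (2.94%) and 2 lower (5.88%), against 2.42% and 0.453% of all genes tested. stdh-2, a steroid dehydrogenase family gene (chromosome V, 16224327 to 16225540), had 0.0266, 0.0402 and 0.0503 CPM in ns889, against 0.599, 0.495 and 0.533 CPM in WT (-3.78 ± 0.63, adjusted p = 0.0044; limma-voom 0.0616). dhs-23 had 0.0711, 0.0502 and 0.0503 CPM in ns889 and 1.22, 0.991 and 1.04 CPM in WT (-4.21 ± 0.40, adjusted p = 0.000107). dhs-9 was higher by 0.50 ± 0.09 and lost its call when only the 2 groups were fitted (adjusted p = 0.0813). Of 46 glutathione S-transferase genes 0 passed in edgeR or limma-voom and 4 were lower in DESeq2; at an unadjusted p under 0.05 there were 7 lower and 0 higher, and without WT replicate 1 the test called 2 lower. gst-4, an oxidative stress reporter gene, had 29.1, 32.1 and 35.2 CPM in ns889 and 23.3, 37.4 and 36.1 CPM in WT, which overlapped (-0.01 ± 0.20, adjusted p = 0.997). Among 51 ABC transporter genes 2 were higher (3.92%) and 1 lower (1.96%), against 2.42% and 0.453% of all genes tested. pgp-1, a P-glycoprotein exporter gene, had 14.2, 17.4 and 17.9 CPM in ns889, against 3.86, 8.76 and 5.81 CPM in WT (1.43 ± 0.26, adjusted p = 0.00705). The other higher one was abcf-2 (0.34 ± 0.05). pgp-8 was lower (-0.79 ± 0.19, adjusted p = 0.0437) and lost its call in 9 fits that each left out 1 library: WT replicate 2 or 3, each ns889 replicate, each ns889 with mold replicate and WT with mold replicate 2 (adjusted p 0.0528 to 0.187). Without WT replicate 1 the counts of ABC transporters were 2 and 2.

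Of 204 nuclear hormone receptor genes 4 were higher and 1 lower (median -0.00; 5 and 3 without WT replicate 1). These shares, 1.96% higher and 0.49% lower, were near those of all genes tested (2.42% and 0.453%). nhr-45 (chromosome X, 4656433 to 4660318) had 25.5, 25 and 26.1 CPM in ns889, against 13.2, 15.2 and 17.4 CPM in WT. The ns889 replicates were almost equal, and all lay above WT (0.74 ± 0.11, adjusted p = 0.00145). nhr-232 had 6.37, 7.31 and 7.6 CPM in ns889 and 2.67, 2.72 and 2.65 CPM in WT (1.40 ± 0.14, adjusted p = 0.000121). nhr-178 had 2.05, 2.05 and 2.13 CPM in ns889 and 0.304, 0.432 and 0.728 CPM in WT (2.10 ± 0.27, adjusted p = 0.00072). The 1 lower receptor gene, nhr-210, had 0.0266, 0.141 and 0.111 CPM in ns889, against 1.07, 2.58 and 2.21 CPM in WT (-4.41 ± 0.51, adjusted p = 0.000402). nhr-156 had 4.05, 4.83 and 6.26 CPM in ns889 and 4.79, 5.8 and 6.8 CPM in WT; the groups overlapped and the gene did not pass (-0.20 ± 0.20, adjusted p = 0.843).

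Over 11 lists of immune defence genes, 3 of 301 tested genes were higher (0.997%) and 2 lower (0.664%), against 2.42% higher and 0.453% lower of all genes tested. DESeq2 called 5 higher and 10 lower, and limma-voom 3 and 2. Without WT replicate 1 edgeR called 3 higher and 9 lower, and without ns889 replicate 2 it called 1 and 0. The 5 called genes were 3 of the C-type lectins, thn-1 and fipr-22. The 8 lists without a call held lysozymes, epidermal antimicrobial peptides, infection response genes, dod genes, pals genes, chitinases, cathepsin-type proteases and saposin-like proteins, 145 tested genes in all. At an unadjusted p under 0.05, 6 of those were higher and 15 lower; DESeq2 called 1 higher and 4 lower, and limma-voom 0 higher and 1 lower. Of 133 C-type lectin genes, which encode proteins with a carbohydrate-binding type of domain, 2 were higher and 1 lower. clec-53 had 8.47, 8.12 and 8.63 CPM in ns889, against 4.43, 5.14 and 5.8 CPM in WT (0.72 ± 0.15, adjusted p = 0.0174). clec-57, which overlaps F08H9.15 on the other strand, averaged 7.11 ± 0.69 CPM in ns889 and 11.5 ± 1.51 CPM in WT (SD, n = 3 each), with a log2 fold change of -0.69 ± 0.15 (edgeR adjusted p = 0.0224). clec-182 was higher at a low level (2.13 ± 0.47, adjusted p = 0.0266). None of the 3 calls held without WT replicate 2 (adjusted p from 0.072 to 0.107) or ns889 replicate 2 (0.061 to 0.133). irg-8 had 222, 202 and 226 CPM in ns889, against 195, 284 and 269 CPM in WT, with WT replicate 1 under all ns889 values. thn-1, of the thaumatin-like family, was lower, with 0.213, 0.151 and 0.231 CPM in ns889 and 0.464, 0.769 and 0.892 CPM in WT (-1.82 ± 0.34, adjusted p = 0.00957). Its call was lost without ns889 replicate 2 (0.0647) and in limma-voom (0.0542). fipr-22, related to fungus-induced peptides, was higher, with 25.7, 22.6 and 19.4 CPM in ns889 and 9.85, 6.5 and 9.58 CPM in WT (1.39 ± 0.17, adjusted p = 0.000439).

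F-box genes, whose products bring targets to ubiquitin ligases, were called higher in 6 of 180 cases (3.33%, near the 2.42% of all genes tested) and lower in 0 (median 0.10). The counts were 3 and 1 without WT replicate 2, 3 and 0 without ns889 replicate 3, and 3 and 0 when only the 2 groups were fitted. fbxa-24 had 6.48, 6.55 and 6.63 CPM in ns889, against 2.77, 2.88 and 3.25 CPM in WT (1.14 ± 0.14, adjusted p = 0.000421). fbxa-192 was higher by 0.93 ± 0.14, and fbxb-75 by 2.30 ± 0.38. Of 28 math genes, another family with ubiquitin ligase adaptors and one chosen after its values were seen, 4 were higher (14.3%) and 0 lower, against 2 without WT replicate 3 and 1 without ns889 replicate 2. math-38 had 5.71, 6.82 and 6.05 CPM in ns889 and 1.35, 1.72 and 1.76 CPM in WT (1.94 ± 0.23, adjusted p = 0.000419). Many members of both families are alike and could share reads.

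The lists of the mitochondrial unfolded protein response, the cytosolic heat shock response and the methionine cycle each held 1 higher gene and 0 lower ones. These were 8.33%, 5.56% and 6.25% of the genes tested in each list, against 2.42% of all genes tested. hsp-6, the mitochondrial HSP70 gene that marks the mitochondrial unfolded protein response, had 1200, 1272 and 1203 CPM in ns889, against 880, 1043 and 1032 CPM in WT. It was the 1 called gene of 12 in that list (0.31 ± 0.07, adjusted p = 0.0248), and the call was lost without ns889 replicate 1 (0.067), 2 (0.135) or 3 (0.0762) and when only the 2 groups were fitted (0.0776). hsp-60 of the same list had 0.24 ± 0.11 and did not pass (adjusted p = 0.424). F44E5.5, a gene of the HSP70 family, was the 1 called gene of 18 in the cytosolic heat shock list, with 1.91, 2.21 and 1.25 CPM in ns889 and 0.836, 0.622 and 0.574 CPM in WT (1.40 ± 0.32, adjusted p = 0.0326). It has a close copy, F44E5.4, with which it could share reads. The list's count was 6 without WT replicate 1 and 0 without WT replicate 2 or 3, ns889 replicate 1 or 2, WT with mold replicate 2 or ns889 with mold replicate 3. ahcy-1, the S-adenosylhomocysteine hydrolase gene of the methionine cycle, was higher (0.32 ± 0.07, adjusted p = 0.017) and lost its call without WT replicate 2 (0.0775) or ns889 replicate 1 (0.0638), 2 (0.0965) or 3 (0.0587). Of the 6 vitellogenin genes, which encode yolk proteins, 0 passed in edgeR, DESeq2 or limma-voom or had an unadjusted p under 0.05. Their summed level was 63700, 65100 and 64500 CPM in ns889 and 66300, 64000 and 69000 CPM in WT. wago-4, an argonaute gene of the germline, was lower by -0.35 ± 0.06, with 126, 125 and 120 CPM in ns889 and 148, 166 and 160 CPM in WT. Further lower genes were ZK105.1 (-0.75 ± 0.09), srp-1, which encodes a serpin (-0.68 ± 0.11), and the transthyretin-related gene ttr-6 (-0.52 ± 0.08).

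The cuticle collagen and named cuticle structure lists given above are tissue lists too (medians 0.30 and 0.45). Besides them, the make-up of the animals was read from 9 lists of tissue markers, of which 8 held no call. In these 8, of 138 genes for intestine, body wall muscle, pharynx, neurons, amphid sheath glia, germline, oocytes and major sperm proteins, 0 passed in edgeR, DESeq2 or limma-voom. At an unadjusted p under 0.05, 3 were higher and 8 lower, and without WT replicate 1 the test called 1 higher and 1 lower. Summed germline markers gave 9230, 10000 and 9310 CPM in ns889, against 10700, 10000 and 10100 CPM in WT. Summed oocyte and eggshell genes gave 8070, 7800 and 7160 CPM in ns889, against 10400, 7570 and 7530 CPM in WT, where replicate 1 was the high one. Their 21 members all had log2 fold changes under 0 (median -0.13), and the germline list had 2 of 20 above 0 (median -0.11). With single libraries left out, the oocyte and eggshell median ran from -0.22 to 0.07, so its sign did not hold. The germline median ran from -0.14 to -0.08. Intestinal markers gave 5090, 5040 and 5400 CPM in ns889 and 4590, 5840 and 5810 CPM in WT, with WT on both sides. The part of these shifts in the changes of nucleolar, collagen and detoxification genes was not tested. In the ninth list, of 47 sperm genes, 1 was called higher (2.13%, against 2.42% of all genes tested). This was fer-1, a dysferlin-family gene of sperm membrane fusion, with 49, 44 and 50.6 CPM in ns889 and 13.5, 25.1 and 24.6 CPM in WT (1.19 ± 0.22, adjusted p = 0.0104). Of the 47 genes 29 were above 0 (median 0.11). The major sperm protein genes leaned the other way, with 3 of 29 above 0 (median -0.26). With single libraries left out, these medians ran from -0.07 to 0.16 and from -0.38 to -0.12.

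The same genotypes on mold, in libraries not used above, gave a second look at the called genes, although the spread was estimated over all replicates together. Of the 411 genes higher without mold, 407 (99.0%) were also higher on mold by sign, against 49.2% of all genes tested. On mold 6.73% of the genes tested were called, 870 of them higher (5.12%); 320 of the 411 were among them, which is 77.9% of the 411 and 36.8% of the 870. All 77 lower genes were negative on mold, and 61 were called lower there, 79.2% of the 77 and 22.3% of the 273 genes (1.61%) called lower on mold. In both directions 0 genes were called the opposite way. The calls on mold depended on the libraries and numbered 1540 higher and 645 lower when WT replicate 1 was dropped. Of the WT replicates on mold, dropping replicate 1 gave 1326 and 542, dropping replicate 2 gave 408 and 137, and dropping replicate 3 gave 506 higher. They were 477 to 520 higher and 117 to 175 lower when 1 of the ns889 replicates on mold was dropped. Median log2 fold changes on mold were 0.49 for the 411 and -0.92 for the 77. F11C3.1 had 8.09 ± 0.21 on mold, H17B01.2 3.94 ± 0.19, rpoa-1 0.52 ± 0.06, dpy-18 1.22 ± 0.09 and nhr-45 1.13 ± 0.11. pgp-1 was at 0.00 ± 0.25 on mold (adjusted p = 0.996) and cyp-13A5 at -0.26 ± 0.19 (adjusted p = 0.402). The difference between the conditions did not pass for either.

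**Figure D4:**
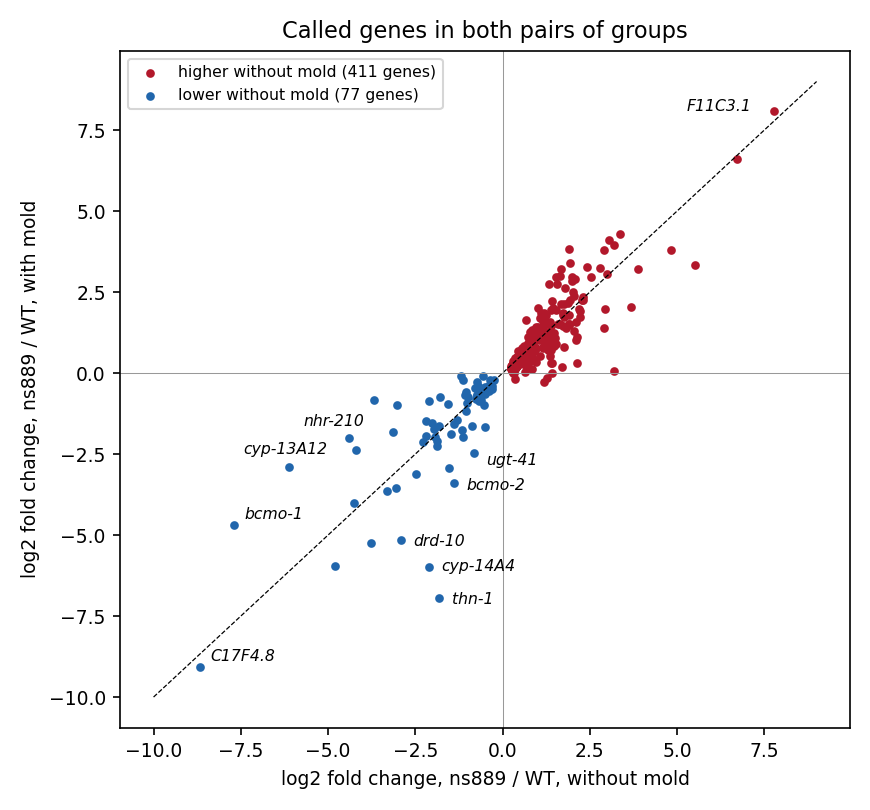
Log2 fold change of ns889 over WT with mold (vertical axis) against that without mold (horizontal axis) for the 411 genes called higher (red) and 77 called lower (blue) without mold; the dashed line marks equal values. Nearly all points share their sign in both conditions (407 of 411 and 77 of 77), and cyp-14A4, bcmo-2, thn-1 and ugt-41 lie below the line.

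A test of the difference between the genotype effects on mold and without mold called 22 genes (0.13%), and 39 without WT replicate 1. Of the genes called without mold, 0 of the 411 and 5 of the 77 were among them, and in all 5 the deficit of ns889 was greater on mold. cyp-14A4 averaged 0.17 ± 0.0716 CPM in ns889 and 0.731 ± 0.0679 CPM in WT without mold (SD, n = 3 each). On mold it averaged 0.456 ± 0.117 CPM in ns889 and 29.1 ± 6.83 CPM in WT. bcmo-2 averaged 1.4 ± 0.0414 CPM in ns889 and 3.66 ± 0.538 CPM in WT without mold, and 2.09 ± 0.31 CPM in ns889 and 22.2 ± 3.48 CPM in WT on mold. In these genes the difference without mold was thus the smaller one. ugt-41 averaged 50.3 ± 3.64 CPM in ns889 and 89.1 ± 2.07 CPM in WT without mold, and 13.3 ± 1.42 CPM in ns889 and 73 ± 15.1 CPM in WT on mold. cdr-4 and nhr-45 showed the same directions in both conditions without a called difference between them (adjusted p = 0.79 for cdr-4 and 0.87 for nhr-45).

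**Figure D5:**
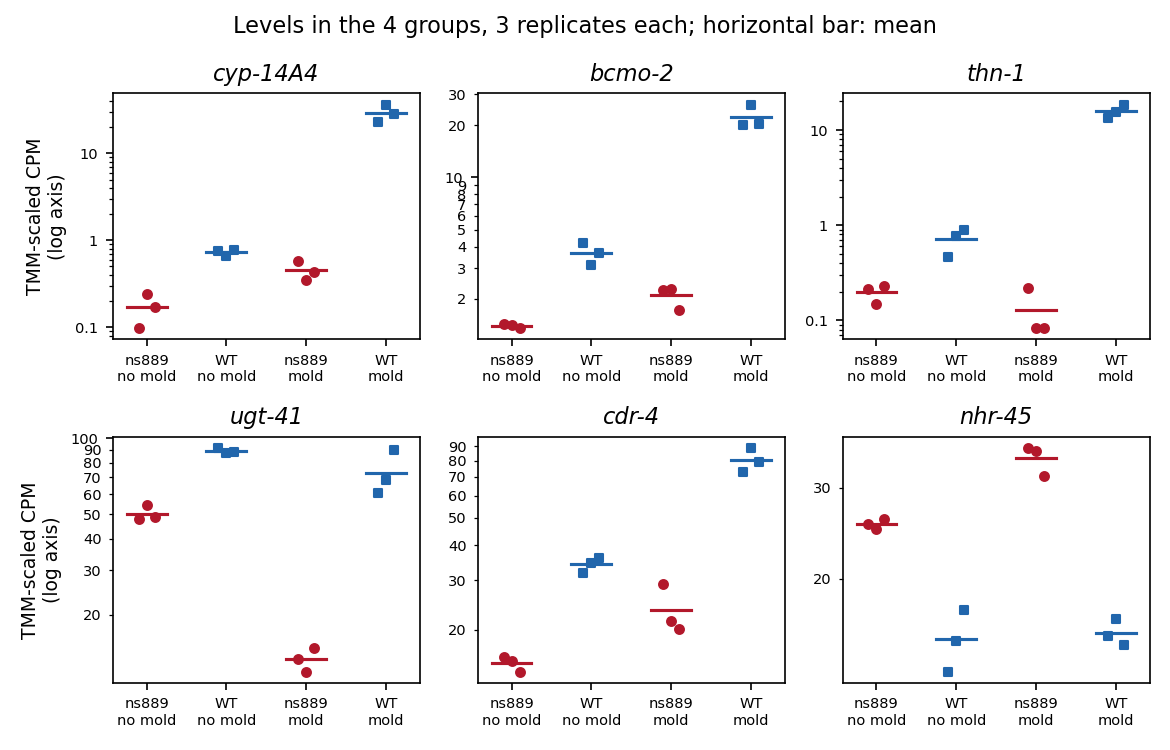
TMM-scaled CPM (log axis) of 6 genes in the 3 replicates of each group, with ns889 as red circles left of WT as blue squares within each condition and a bar at the mean. In cyp-14A4, bcmo-2, thn-1, ugt-41 and cdr-4 every ns889 value is below every WT value of the same condition, and in nhr-45 every one is above.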

How the data were processed

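The deposited file gives raw counts per gene for each sequencing run. The submitters' processing notes name FastQC 0.11.12, STAR 2.4a, featureCounts, edgeR 3.28.1, limma 3.42.2 and the genome build WBcel235; the strand setting was not given in the sources used here, nor was the annotation release. Runs of a replicate were summed. Of 46904 gene IDs, 16980 passed filterByExpr. The quasi-likelihood test of edgeR 4.0.16 in R 4.3.3 (TMM scaling, estimateDisp, robust glmQLFit and glmQLFTest) was run on a single model with a mean for each of the 4 groups and all 12 replicates, with no covariate. Benjamini-Hochberg adjustment covered all of these genes (threshold 0.05), and each ± after a log2 fold change is an SE.

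The comparison, the 50 gene lists and the rule for naming genes were chosen with earlier results of these data known. The rule took the 15 highest and 15 lowest called log2 fold changes among genes without overlap and with a mean of 5 CPM or more. It added up to 4 called members of a list, or its 2 most abundant members where none passed, and called neighbours in runs of at least 3. Fixed members were nhr-45 and nhr-156, the heat shock genes hsp-4, hsp-6 and hsp-60, and gst-4, bcmo-2 and drd-10. A further 9 families and 33 genes were added after their values were seen, among them dot-1.3, fkb-4, math-38, C17F4.8, swt-6, eef-1A.2, ncl-1 and the named genes of ribosome production; some genes are left out for length.

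The results were recomputed with RLE scaling, with DESeq2 1.42.0, with limma-voom (limma 3.58.1), without a filter on low counts, on genes of at least 5 CPM, on the first run alone, with a replicate block, on the 2 groups alone, with an absolute log2 fold change of 1 as a minimum, and without each replicate in turn. The test was also checked on simulated data, with 50 genes above 1 CPM changed at each fold. It found 56% of the 1.5-fold changes, 90% of the 2-fold and 100% of the 4-fold ones. Of the calls, 5.98% were false. The simulated spread followed the trend over all genes, so single genes can differ. Changes of 1.5-fold or less could therefore be missed in lists without a call.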

Additional observations from a re-analysis of the deposited data

Results flagged for a closer look

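For 6 of the named genes the difference between ns889 and WT was not the same on mold as without it, by the test of that difference in edgeR's model. They are part of the 22 genes which that test called, and the others include both signs. For example, dod-24 had a difference of 3.17 (adjusted p = 0.0012) and ilys-2 one of -5.62 (adjusted p = 0.002). thn-1 had the widest gap of the 6, a difference of -5.11 between the log2 fold changes on mold and without it (adjusted p = 0.00167); on mold it averaged 0.128 CPM in ns889 and 15.9 CPM in WT. The difference was -3.88 for cyp-14A4 (adjusted p = 0.00214), -2.02 for bcmo-2 (0.00281) and -1.63 for ugt-41 (0.00234). It was -1.17 for F59B1.8 (adjusted p = 0.00793), whose own lower call without mold was lost when any 1 ns889 replicate was left out (adjusted p from 0.101 to 0.172). For ilys-5, an invertebrate-type lysozyme gene with 404 CPM in ns889 and 444 CPM in WT without mold and no call there, the difference was -1.58 (adjusted p = 0.0238). On mold it averaged 111 CPM in ns889 and 365 CPM in WT.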

How the results depend on the processing

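Against 411 higher and 77 lower genes, DESeq2 called 602 higher and 207 lower, and a mean of at least 5 CPM left 381 and 43. A minimum absolute log2 fold change of 1 left 118 higher and 42 lower. With only the 2 groups fitted, 266 were higher and 59 lower. Dropping both WT libraries that stood apart (replicate 1 without mold, replicate 3 on mold), a choice made after seeing the data, gave 751 higher and 566 lower, of which 405 and 73 were among the reported ones. Leaving out single replicates gave 276 to 484 higher and 43 to 211 lower. On mold, 870 higher and 273 lower became 1487 and 477 in DESeq2, 524 and 145 at 5 CPM, and 472 and 90 with the minimum change; single replicates gave 408 to 1540 higher and 117 to 645 lower, and both WT libraries 571 lower. The 22 differences between conditions became 77 in DESeq2, 11 at 5 CPM and 114 without both WT libraries, and 15 to 39 without single replicates. The cause was not tested.

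With the replicate number as a block (replicate block), 443 genes were higher and 83 lower, 377 and 68 of them reported. The correlation of deviations between ns889 and WT replicates of the same number was 0.279, -0.011 and 0.289. For ns889 replicates 1 and 3 the WT replicate of the same number correlated best. For ns889 replicate 2 all correlations were near 0 (-0.0348 to 0.0347). These values cannot decide whether the numbers mark pairs, and the main test did not use them. Of 116 named genes that were called, 90 had a value in all 22 refits, and 65 of the 90 were called in each. A further 17 were called in every refit that gave them a value, and 0 of all named genes changed sign past the threshold. The minimum log2 fold change of 1 is not among these refits; 56 of the 116 reached it. Without both WT libraries, UDP-glycosyltransferase genes came to 6 higher and 11 lower. Depth limits the scarce genes: 38 higher and 16 lower genes had a mean under 1 CPM.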

Other observations

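Of 25 insulin-like peptide genes 1 was higher (4%, near the 2.42% of all genes tested). This was ins-20, with 0.16, 0.291 and 0.151 CPM in ns889 and 1 count over the 3 WT replicates (adjusted p = 0.00391). pcca-1, the propionyl-CoA carboxylase alpha subunit gene of propionate breakdown, had 302, 274 and 281 CPM in ns889, against 243, 222 and 206 CPM in WT (log2 fold change 0.35 ± 0.07, adjusted p = 0.0144). It overlaps several other tested genes, and its call was lost without WT replicate 2 (0.0658) or 3 (0.0817), ns889 replicate 1 (0.0786) or ns889 with mold replicate 2 (0.0556). Of 56 transthyretin-related genes 1 was higher (1.79%) and 2 lower (3.57%), against 2.42% and 0.453% of all genes tested. ttr-6 was one of the lower ones. ttr-23, a gene of that family of secreted proteins, had 3.86, 3.04 and 3.88 CPM in ns889 and 1.44, 1.44 and 1.36 CPM in WT (1.34 ± 0.15, adjusted p = 0.000308). The lower count of that list was 1 without WT replicate 2 or 3 or ns889 replicate 1 or 2.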
